A study of Rattus norvegicus with 16 samples.

Results

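Lung was compared with adipose tissue in control rats. The members are the 6 arrays whose labels name lung or adipose tissue of control rats 1 to 3, of 16 arrays in the series, and the other 10 arrays come from 5 rats given house dust mite (HDM). All animals were male Brown Norway rats, given by the study's methods as 7 weeks old for the start of sensitization, and their age at sampling is not given in the sources used here. The control rats were not untouched animals, because they received the adjuvant Al(OH)3 in saline under the skin and saline into the nose. The HDM rats received 45 µg of HDM with the same adjuvant under the skin and 120 µg of HDM into the nose. The same 3 control rats gave both tissues, with 1 array per rat and tissue, so that each rat served as its own pair. Both tissues were taken whole, no cells were sorted, and the labels do not name the fat depot.

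The lung exchanges gas across alveoli lined by flat type I cells and by type II cells, which secrete surfactant, the lipid and protein film that keeps alveoli open. Its airways are lined by ciliated and secretory cells, and a dense capillary bed surrounds the air spaces. White adipose tissue stores triglyceride in adipocytes, releases fatty acids on demand and secretes hormones such as leptin and adiponectin. Preadipocytes, capillaries, macrophages and, in depots inside the body cavity, a mesothelial cover make up the rest of the tissue. In bulk tissue, fewer cells of a type and less RNA per cell cannot be told apart.

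Signal is given as log2 of the spot intensity minus the 75th percentile of its array, which puts that percentile at 0. A difference is lung minus adipose tissue within a rat, in log2 units. The value after ± is the standard error moderated by limma, which draws the spread of each probe towards that of all probes. The 75th percentile of the raw signal was 387.55 to 438.34 on the lung arrays and 110.89 to 227.49 on the adipose arrays, and 64.6% to 66.0% against 54.0% to 60.3% of probes were well above background. All lung arrays lay on 1 slide and all adipose arrays on another, so slide and tissue cannot be told apart. The adipose tissue of rat 1 stood apart from the other adipose arrays. On the second principal component, which held 15.6% of the variance, it scored 135 against -93.3 and -74.3. On that array all 22 measured genes typical of epididymis or testis had their highest adipose level, with a median of 5.08 against -5.16 and -4.44 in the other 2 rats. The lung of rat 3 carried the most adipocyte signal among lungs, with 20 of 24 adipocyte genes highest there. Where 3 levels are given for a tissue, they are those of rats 1, 2 and 3 in this order. Brackets behind the counts of a gene list give the numbers of its genes called without rat 1, without rat 2 and without rat 3. These numbers take both directions together and come from fits with fewer arrays. Where the tissue with more of the called genes changes under spike-in scaling, the brackets also give the counts higher in lung and higher in adipose tissue by spike-ins.

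The first principal component held 71.3% of the variance and separated the tissues, with scores of 147 to 174 for lung and -203 to -121 for adipose tissue. Of 45598 probes, 18705 differed between the tissues at an adjusted p below 0.05 and a fold change above 1.5, with 4482 (9.83%) higher in lung and 14223 (31.2%) higher in adipose tissue. Of these probes, 7369 were dim on all 6 arrays (0 well above background), and scaling by the 75th percentile lifts such dim probes on the fainter adipose arrays. A gene is therefore called higher in a tissue below only where, in addition, its probe was well above background on all 3 arrays of that tissue. By this rule 2127 of 16678 genes (12.8%) were higher in lung and 2025 (12.1%) were higher in adipose tissue, and the counts in each gene list are read against these shares. The median difference was 1.74 among the lung genes and 1.52, in the other direction, among the adipose genes. More than 16-fold differences numbered 196 in lung and 167 in adipose tissue. The median over all genes was -0.30, and the medians of gene lists are given relative to it. Settings that only rescale whole arrays cannot change these relative medians. Scaling to the spike-ins, RNAs of known amount added to each sample, moved the median over all genes to 1.41. It turned the sign of 1176 of the 2025 adipose genes and of 0 of the 2127 lung genes. Under it, the numbers of genes higher in adipose tissue were 21 of 24 for adipocytes, 11 of 18 for triglyceride storage and release, 6 of 8 for mesothelium, 6 of 18 for fatty acid synthesis and 4 of 22 for complement. When rat 1 was left out, 355 genes were higher in lung and 339 higher in adipose tissue in the fit to the remaining 2 rats, and 329 of the 2127 and 323 of the 2025 genes kept their call, with no change of sign.

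**Figure D1:**
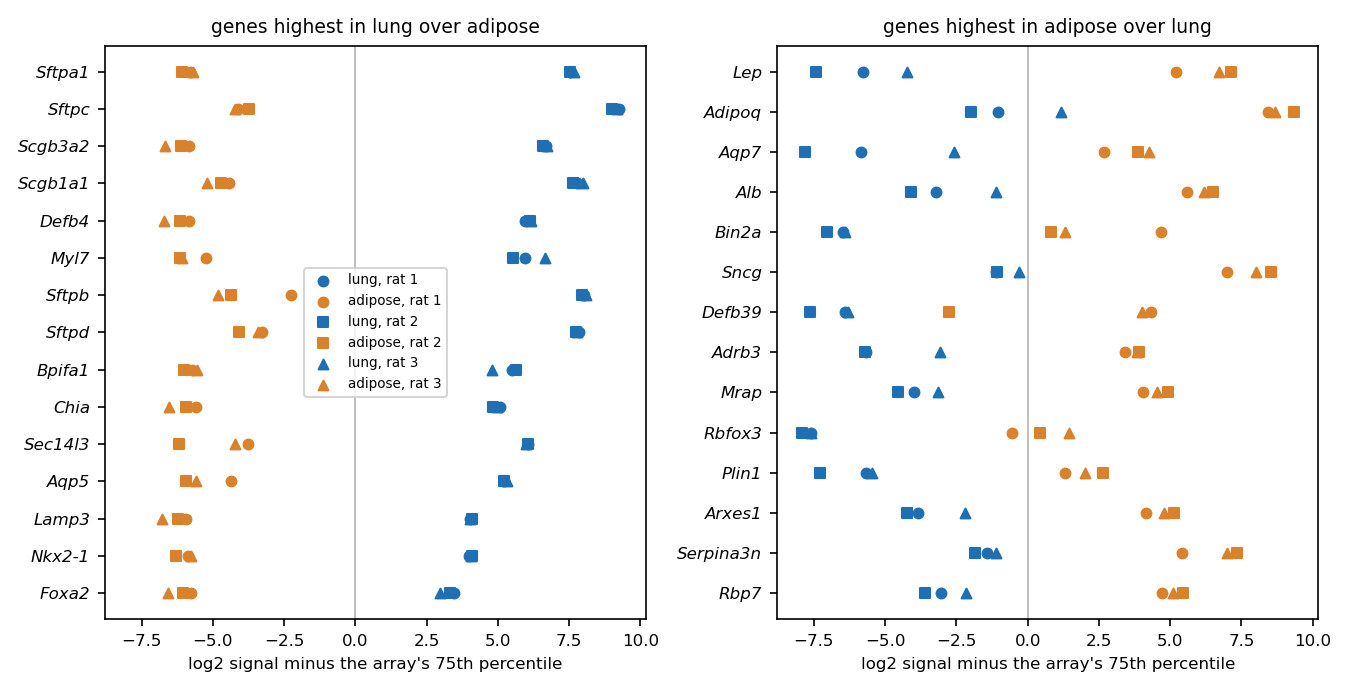
Signal of the genes named from the 15 largest differences in each direction on each of the 6 control arrays (x axis, log2 signal minus the 75th percentile of the array, blue for lung, orange for adipose tissue, the symbol shape for the rat). The lung and adipose points of every gene lie apart because only genes without overlap were taken. Over all genes, 10776 of 16678 (64.6%) had no overlap. The lungs differ most among themselves at Lep, Adipoq, Aqp7, Alb and Adrb3, where the lung of rat 3 is the highest lung.

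The largest differences in favour of lung were those of surfactant and of airway secretions. Sftpa1, a collectin of surfactant, stood at 7.53, 7.53 and 7.67 in lung and at -5.79, -6.09 and -5.69 in adipose tissue. The tissues did not overlap, which the choice of these genes required. The difference was 13.43 ± 0.20 (limma, adjusted p = 0.00359), and since adipose tissue was never above background the gene was at least 4980-fold higher in lung. Such bounds of "at least" hold for the main scaling only. Sftpc, a small hydrophobic surfactant protein made by type II cells, was the brightest of these in lung, at 9.24, 9.01 and 9.19 in lung and at -4.1, -3.74 and -4.21 in adipose tissue. Its difference was 13.17 ± 0.24 (adjusted p = 0.00359), with 1 of the 3 adipose arrays above background. Sftpb, which spreads the surfactant film, differed by 11.83 ± 0.57 (adjusted p = 0.00578) and was highest among adipose arrays in rat 1, at -2.24 against -4.37 and -4.81.

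Of the alveolar epithelium list, 17 of 18 measured genes were higher in lung and 0 in adipose tissue (15, 15 and 15 without a rat), with a median relative to all genes of 8.12. The type II cell genes Lamp3, a lamellar body membrane protein, and Slc34a2, a phosphate transporter, were at least 426-fold and at least 182-fold higher in lung. Among type I cell genes, Ager, the receptor for advanced glycation end products, stood at 8.47, 8.28 and 8.4 in lung and at -0.08, 0.67 and 0.42 in adipose tissue, a difference of 8.04 ± 0.27 (adjusted p = 0.00489). Aqp5, the water channel of type I cells and glands, was at least 990-fold higher. Hopx differed by 4.34 ± 0.67 (adjusted p = 0.0206) and Pdpn by 2.46 ± 0.42 (adjusted p = 0.0243). The smallest difference that passed was that of Clic5, at 2.4 ± 0.24 (adjusted p = 0.012), and Etv5 did not pass, at 1.29 ± 0.55 (adjusted p = 0.126).

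Among airway secretory genes, 9 of 13 measured were higher in lung and 0 in adipose tissue (7, 9 and 6 without a rat). Scgb1a1, the secretoglobin of club cells, stood at 7.78, 7.65 and 7.99 in lung and at -4.43, -4.71 and -5.21 in adipose tissue, and was at least 5520-fold higher in lung (difference 12.59 ± 0.28, adjusted p = 0.00359). Scgb3a2, a second secretoglobin, was at least 2639-fold higher, and Bpifa1, a secreted protein of the upper airway lining, at least 1040-fold higher. The lung of rat 3 had the lowest Bpifa1 level among lungs, at 4.81 against 5.50 and 5.65. Defb4, a beta-defensin, and Chia, an acidic chitinase, lay outside this list but among the 15 largest lung differences, at least 1777-fold and at least 810-fold higher. Sec14l3, a lipid-binding protein of the airway epithelium, differed by 10.77 ± 0.55 (adjusted p = 0.00578). Agr2, at 3.01 ± 1.74 (adjusted p = 0.22), and Aldh1a1, at 0.90 ± 0.96 (adjusted p = 0.476), did not pass.

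RefSeq promoters of build GRCr8 were matched for 12 of the 15 lung genes and 9 of the 15 adipose genes. The bases from 47 to 18 before the start are printed 5′ to 3′ on the strand of the gene, with capitals for TATAAA, for CCAAT and for CAAGTG or its complement, the core bound by NKX2-1. The first 4 lines are the lung genes chosen because TATAAA, the core of the TATA box, lies in these bases. It does so in 4 of the 12 lung and 0 of the 9 adipose genes. The printed bases begin with the match in Bpifa1 and end with that in Chia. How many of all promoters hold TATAAA in these bases was not counted, so these counts have nothing to be read against. Sftpb and Sec14l3 are lung genes without it, and Lep and Adipoq are the leading adipose genes.
Sftpa1, chr16:17042217-17042246, plus strand: tacctgtcTATAAAggatgctgtcCACTTG
Scgb1a1, chr1:215409704-215409733, minus strand: ggaacaTATAAAaagccacacgcataccca
Bpifa1, chr3:163087918-163087947, plus strand: TATAAAagggagtgattcttccttggcaaa
Chia, chr2:196302640-196302669, plus strand: tgtgataactaggcactcaggtggTATAAA
Sftpb, chr4:105917541-105917570, plus strand: ccccaactataagagcccctgactcaagta
Sec14l3, chr14:83168211-83168240, plus strand: gctggctgggcagacaggtgaggctgggct
Lep, chr4:58626491-58626520, plus strand: actataagaggggcaggcaggcatggagcc
Adipoq, chr11:91240187-91240216, minus strand: gctggCCAATggtgagctgggttctgcttg
In the whole window of 300 bases, from 250 before to 50 after the start, TATAAA on the strand of the gene was found in 5 of the 12 lung promoters, in 1 of the 9 adipose promoters and in 9.08% of all 27457 promoters. Where the TATA box usually lies, with a first base 35 to 20 bases before the start, it was in 1 of the 12, in 0 of the 9 and in 1.31% of all. CAAGTG on either strand was found in 4 of the 12, in 0 of the 9 and in 13.8% of all promoters. GGGCGG on either strand was found in 2 of the 12, in 4 of the 9 and in 34.9% of all, and CCAAT on either strand in 3 of the 12, in 4 of the 9 and in 37.7%. Neither TGTTTAC, the forkhead core, nor the direct repeat of AGGTCA with 1 base between the copies, which PPAR and RXR bind, was in any of these 21 windows, against 3.76% and 0.0583% of all promoters. The number of CG pairs per window had a median of 4.5 in the 12 lung genes, of 8 in the 9 adipose genes and of 7 over all promoters. Over all genes higher in a tissue, TATAAA was in 7.63% of 1690 lung promoters and 7.37% of 1614 adipose promoters, and the median number of CG pairs was 15 and 16, beside 8.17% and 15 for the 13642 measured genes with a promoter. A match gives letters in a window and not a bound site.

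Genes of motile cilia, the beating projections of airway cells, gave 10 higher in lung and 0 higher in adipose tissue of 14 measured (0, 4 and 3 without a rat), with a median relative to all genes of 2.78. Rsph1, a radial spoke protein, stood at 3.23, 2.93 and 2.88 in lung and at -0.51, -4.26 and 0.44 in adipose tissue and differed by 4.46 ± 0.99 (adjusted p = 0.0305). Foxj1, the transcription factor of ciliated cells, stood at 2.14, 1.84 and 1.78 in lung and at 0.41, -5.96 and 0.97 in adipose tissue and did not pass, at 3.45 ± 1.51 (adjusted p = 0.134). General epithelial genes, such as keratins and junction proteins, gave 4 higher in lung and 0 higher in adipose tissue of 20 measured (1, 1 and 1 without a rat), and their medians within rats 1 to 3 were -0.09, 4.63 and 1.92. Their level on the adipose arrays had a median of 2.39 in rat 1, -3.1 in rat 2 and 1.34 in rat 3, and 18 of the 20 were highest in rat 1. Cdh1, E-cadherin, stood at 3.87, 3.81 and 3.66 in lung and at 3.1, -5.9 and 1.5 in adipose tissue. Its difference, 4.21 ± 1.91, did not pass (adjusted p = 0.143), and the lung level was higher in each rat. Epcam, at 2.96 ± 1.58 (adjusted p = 0.191), likewise did not pass. The part of the epididymal signal in these values was not tested.

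Transcription factors of lung development gave 9 higher in lung and 1 higher in adipose tissue of 18 measured (3, 7 and 4 without a rat). Nkx2-1, which sets lung epithelial identity, stood at 3.99, 4.09 and 4.07 in lung and at -5.89, -6.31 and -5.79 in adipose tissue, and was at least 432-fold higher in lung (adjusted p = 0.00359). Foxa2, a forkhead factor of endodermal epithelium, was at least 249-fold higher. Tbx4, a T-box factor of lung mesenchyme and hindlimb, stood at 2.83, 2.93 and 2.76 in lung and at -5.66, -5.62 and -5.62 in adipose tissue and was at least 187-fold higher (adjusted p = 0.00359). Irx2, at 6.02 ± 0.60 (adjusted p = 0.0116), Sox2, at 5.19 ± 0.68 (adjusted p = 0.016), and Irx5, at 4.77 ± 0.34 (adjusted p = 0.00764), were also higher in lung. Sox9, a factor of the growing lung tip and of cartilage, was the exception, with a difference of -1.08 ± 0.25 (adjusted p = 0.0331) that turned to 0.62 when arrays were scaled to the spike-ins.

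Transport across the alveolar surface was represented by 10 genes, with 5 higher in lung and 1 in adipose tissue (3, 4 and 5 without a rat). All 3 subunits of the epithelial sodium channel, which clears alveolar fluid, were higher in lung. Scnn1g was at least 198-fold higher, Scnn1a differed by 6.23 ± 0.43 (adjusted p = 0.00729) and Scnn1b by 4.56 ± 0.39 (adjusted p = 0.00961). Clcn2, a chloride channel, was higher in adipose tissue by the same rule, at -2.07 ± 0.23 (adjusted p = 0.0134). Cftr, the chloride channel mutated in cystic fibrosis, stood at -0.40, -0.54 and -0.86 in lung and at 3.21, -2.82 and 0.07 in adipose tissue and did not pass (adjusted p = 0.626).

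Endothelial genes gave 17 higher in lung and 0 higher in adipose tissue of 20 measured (4, 13 and 8 without a rat). Their median relative to all genes was 2.67, with a range of 2.1 to 2.89 over the settings tried, of which rescaling of whole arrays cannot move it. Car4, a carbonic anhydrase of alveolar capillaries, stood at 5.23, 5.34 and 5.32 in lung and at 0.49, 1.61 and 1.15 in adipose tissue and differed by 4.21 ± 0.28 (adjusted p = 0.00703). Tmem100, at 4.2 ± 0.19 (adjusted p = 0.00578), and Ednrb, the endothelin B receptor, at 4.01 ± 0.39 (adjusted p = 0.0111), differed by about as much. The pan-endothelial genes differed less, with Cdh5, VE-cadherin, at 0.89 ± 0.23 (adjusted p = 0.0411) and Pecam1 at 0.90 ± 0.26 (adjusted p = 0.0537), which did not pass. Gpihbp1, which holds lipoprotein lipase on capillaries, stood at -3.09, -2.69 and -3.0 in lung and at -2.84, -2.31 and -2.65 in adipose tissue and did not pass (adjusted p = 0.229).

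Within the renin-angiotensin system, which makes the pressor peptide angiotensin II, the precursor and the converting enzyme were highest in different tissues. Agt, the precursor angiotensinogen, stood at 1.17, 1.13 and 1.46 in lung and at 7.96, 8.48 and 7.88 in adipose tissue, a difference of -6.85 ± 0.27 (adjusted p = 0.0056). Ace, which forms angiotensin II, stood at 5.27, 5.25 and 5.13 in lung and at 0.66, 1.76 and 1.16 in adipose tissue and differed by 4.03 ± 0.29 (adjusted p = 0.00777). Anpep, an aminopeptidase, differed by 2.78 ± 0.31 (adjusted p = 0.0137). Enpep, at 1.1 ± 0.29 (adjusted p = 0.0436), and Atp6ap2, the prorenin receptor, at 0.86 ± 0.19 (adjusted p = 0.0312), were higher in lung, and Lnpep, at -1.51 ± 0.31 (adjusted p = 0.0265), in adipose tissue, which turned to 0.19 under spike-in scaling. The receptor Agtr1a did not pass, at -0.93 ± 0.36 (adjusted p = 0.103), and Agtr2 was above background on 0 of the 6 arrays.

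Markers of lymphocytes and granulocytes were higher in lung, and markers of resident macrophages were divided. The T and NK cell list gave 14 higher in lung and 1 higher in adipose tissue of 17 measured (2, 4 and 8 without a rat). Prf1, perforin, stood at 2.35, 2.37 and 1.93 in lung and at -1.53, -1.43 and -1.49 in adipose tissue and differed by 3.7 ± 0.21 (adjusted p = 0.0065), and Gzmb, granzyme B, differed by 2.87 ± 0.20 (adjusted p = 0.0073). Cd3d, a chain of the T cell receptor complex, differed by 2.44 ± 0.23 (adjusted p = 0.0106), while Cd4, at 0.07 ± 0.42 (adjusted p = 0.9), and Cd8a, at 1.1 ± 0.43 (adjusted p = 0.102), did not pass. The 1 gene in the other direction was Tbx21, a T helper 1 factor, at -1.21 ± 0.20 (adjusted p = 0.0232), which turned to 0.49 under spike-in scaling.

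The list for B cells and lymph nodes gave 8 higher in lung and 2 higher in adipose tissue of 12 measured (4, 7 and 7 without a rat). Cd79b, a chain of the B cell receptor complex, stood at 1.11, 0.94 and 0.99 in lung and at -3.04, -2.87 and -2.81 in adipose tissue and differed by 3.92 ± 0.21 (adjusted p = 0.00578) and the chemokine Ccl19 by 3.13 ± 0.30 (adjusted p = 0.0109). Madcam1, an adhesion molecule of mucosal vessels, was higher in adipose tissue, at -2.23 ± 0.38 (adjusted p = 0.0251), as was Pax5, at -0.98 ± 0.24 (adjusted p = 0.0365), which turned to 0.73 under spike-in scaling.

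Neutrophil genes gave 7 higher in lung and 0 higher in adipose tissue of 12 measured (2, 6 and 5 without a rat). S100a8 and S100a9, the calprotectin subunits, differed by 5.41 ± 0.47 (adjusted p = 0.00987) and 5.01 ± 0.24 (adjusted p = 0.00578). S100a8 stood at 1.8, 1.81 and 1.3 in lung and at -4.85, -2.75 and -3.73 in adipose tissue. Mast cell genes gave 5 higher in lung and 1 higher in adipose tissue of 10 measured (0, 2 and 1 without a rat), with opposite directions among the proteases. Mcpt1 stood at 2.05, 0.91 and 0.70 in lung and at -3.58, -2.41 and -1.65 in adipose tissue and differed by 3.76 ± 0.69 (adjusted p = 0.0261), while Cma1, a chymase, differed by -2.34 ± 0.50 (adjusted p = 0.0277). Of 10 alternative settings, Mcpt1 lost its call in 4 and Cma1 in 6, and under quantile normalization neither was called. Erythrocyte genes gave 3 higher in lung and 0 higher in adipose tissue of 9 measured (0, 1 and 0 without a rat), and the haemoglobin genes share near-identical sequence, so that their probes may not tell the copies apart. Hba-a2 differed by 3.2 ± 0.74 (adjusted p = 0.0336) and Alas2, the first enzyme of haem synthesis in red cells, by 3.62 ± 0.95 (adjusted p = 0.0437).

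The macrophage list gave 2 higher in lung and 8 higher in adipose tissue of 17 measured (5, 4 and 2 without a rat, 6 and 1 by spike-ins). Marco, a scavenger receptor of alveolar macrophages, was at least 5.58-fold higher in lung, and Lyve1, shared with lymphatic vessels, differed by 1.95 ± 0.33 (adjusted p = 0.0247). Cd163, the haemoglobin scavenger receptor of tissue macrophages, stood at -1.09, -1.11 and -1.18 in lung and at 1.81, 3.42 and 3.2 in adipose tissue, a difference of -3.94 ± 0.41 (adjusted p = 0.0122). Folr2, at -2.86 ± 0.37 (adjusted p = 0.016), and Trem2, a lipid receptor, at -2.05 ± 0.31 (adjusted p = 0.0198), were also higher in adipose tissue. General macrophage genes did not pass, with Cd68 at 1.02 ± 0.37 (adjusted p = 0.0911), Csf1r at 0.93 ± 0.36 (adjusted p = 0.105) and Adgre1 at -0.51 ± 0.33 (adjusted p = 0.269). The median within rats 1 to 3 was -0.14, -1.39 and -1.03, so that rat 1 lay nearest to 0.

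Complement genes gave 0 higher in lung and 13 higher in adipose tissue of 22 measured (8, 7 and 5 without a rat, 6 and 4 by spike-ins), with a median relative to all genes of -1.42. Cfd, adipsin, the serine protease that starts the alternative pathway, stood at 2.24, 1.88 and 2.85 in lung and at 8.9, 9.69 and 9.0 in adipose tissue and differed by -6.88 ± 0.39 (adjusted p = 0.00614). C6, a part of the membrane attack complex, differed by -5.19 ± 0.37 (adjusted p = 0.00755). The 3 chains of C1q were all higher in adipose tissue, led by C1qa at -2.81 ± 0.32 (adjusted p = 0.0138), and so were the proteases C1r, at -2.79 ± 0.33 (adjusted p = 0.0143), and C1s, at -2.83 ± 0.28 (adjusted p = 0.0115). C4a and C4b, near-identical copies that their probes may not tell apart, differed by -3.64 ± 0.35 (adjusted p = 0.0112) and -3.65 ± 0.33 (adjusted p = 0.0104). C3, the shared centre of the pathways, stood at 3.32, 3.01 and 2.85 in lung and at 3.09, 3.51 and 2.86 in adipose tissue and did not pass (adjusted p = 0.766).

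**Figure D2:**
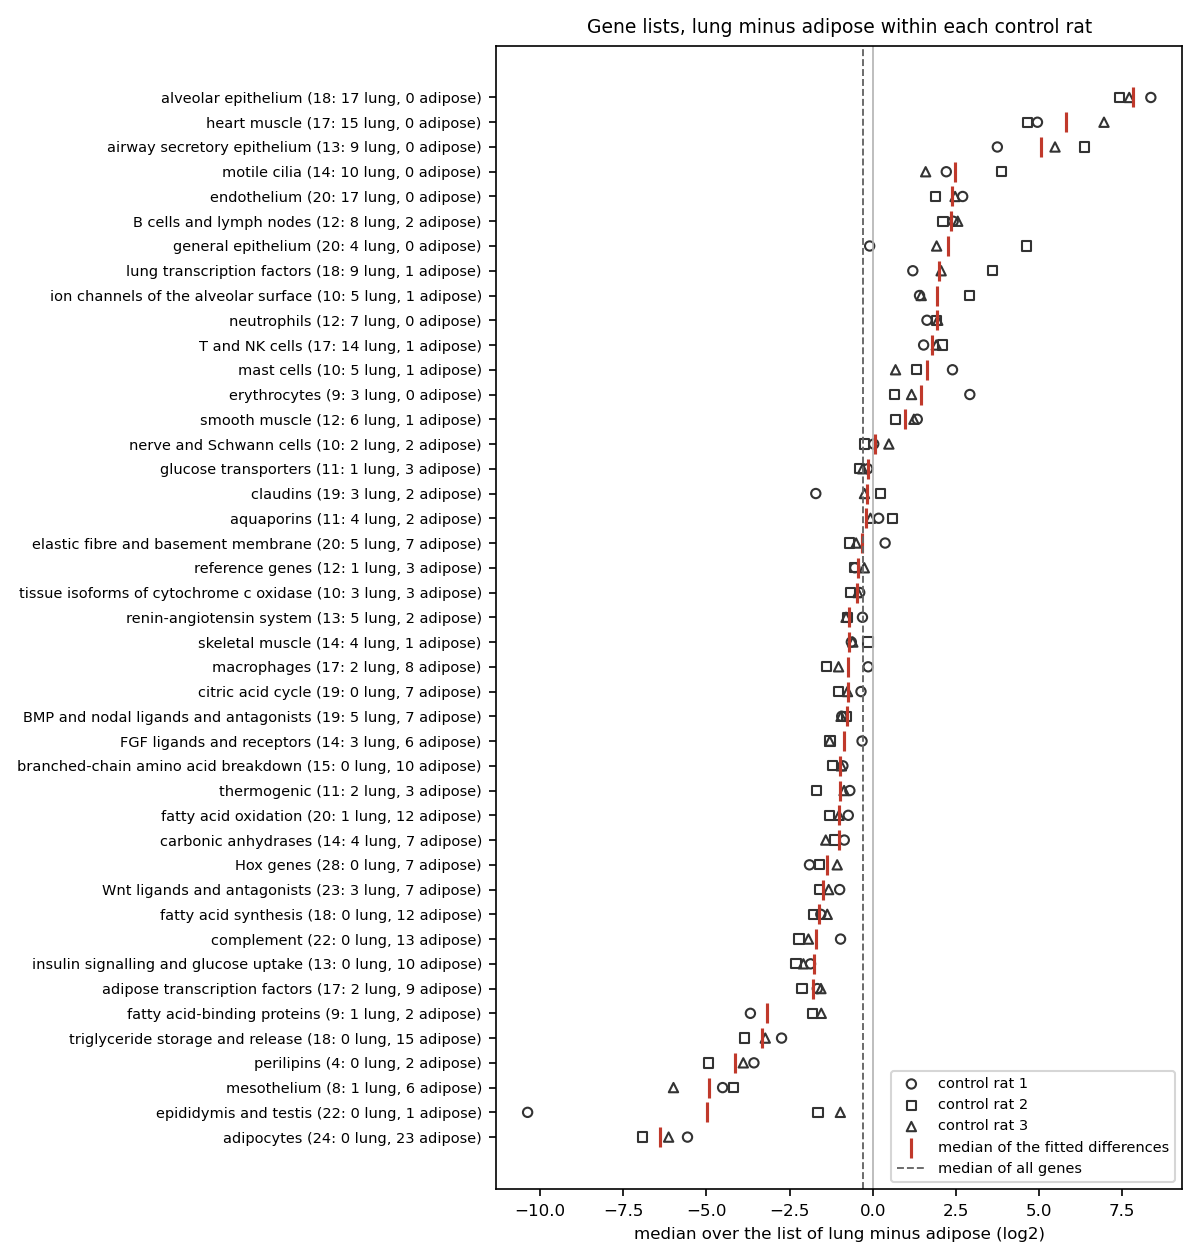
Median difference of each of 43 gene lists within each control rat (x axis, lung minus adipose tissue, log2, open symbols for rats 1 to 3, red bars for the median of the fitted differences, the dashed line for the median of all genes), with the number of measured genes and of those higher in each tissue beside its name. The lists run from 7.83 for alveolar epithelium to -6.38 for adipocytes, and the epididymis and testis list and the general epithelium list differ most between rats.

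Heart muscle genes were the second strongest list in favour of lung, with 15 higher in lung and 0 higher in adipose tissue of 17 measured (8, 13 and 12 without a rat) and a median relative to all genes of 6.1. Myl7, the atrial myosin light chain, stood at 5.96, 5.53 and 6.65 in lung and at -5.23, -6.17 and -6.08 in adipose tissue and was at least 1723-fold higher in lung (adjusted p = 0.00459). Myh6, the atrial myosin heavy chain, was at least 299-fold higher, and Sln, sarcolipin of the atria, at least 124-fold. Tnni3, cardiac troponin I, differed by 8.0 ± 0.28 (adjusted p = 0.0051) and Nppa, the atrial natriuretic peptide, was at least 22.8-fold higher. Of the 17 genes, 16 were highest in the lung of rat 3, whose median was 3.50 against 2.53 and 2.14 in rats 1 and 2. Bmp10, made in the right atrium, was above background on 0 of the 6 arrays, and Myl3, the ventricular light chain, did not pass, at 0.57 ± 0.35 (adjusted p = 0.243). In rodents, heart-type muscle also sheathes the pulmonary veins. Whether veins or attached heart tissue gave this signal was not tested.

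Skeletal muscle genes, by contrast, gave 4 higher in lung and 1 higher in adipose tissue of 14 measured (1, 2 and 2 without a rat). Ckm, muscle creatine kinase, which heart muscle also makes, differed by 4.94 ± 0.30 (adjusted p = 0.00659), and Acta1 by 3.19 ± 0.32 (adjusted p = 0.0117). The fast myosin Myh4 stood at -5.44, -5.28 and -5.42 in lung and at -3.43, -4.93 and -4.92 in adipose tissue and was above background on 1 of the 6 arrays. Smooth muscle genes gave 6 higher in lung and 1 higher in adipose tissue of 12 measured (0, 3 and 3 without a rat). Actg2 differed by 4.46 ± 0.39 (adjusted p = 0.0101) and Tagln by 2.35 ± 0.27 (adjusted p = 0.0137), while Acta2, at 0.78 ± 0.23 (adjusted p = 0.0568), and Myh11, at 0.83 ± 0.25 (adjusted p = 0.0584), did not pass. Cald1, caldesmon, was higher in adipose tissue, at -1.47 ± 0.22 (adjusted p = 0.0199), and turned to 0.24 under spike-in scaling.

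Genes of nerve and Schwann cells were divided in the main scaling, with 2 higher in lung and 2 higher in adipose tissue of 10 measured (2, 3 and 3 without a rat, 6 and 1 by spike-ins). S100b, a calcium-binding protein of glia that adipocytes also make, stood at -0.43, -0.75 and 0.31 in lung and at 6.7, 8.04 and 7.54 in adipose tissue and differed by -7.72 ± 0.41 (adjusted p = 0.0059). Prx, periaxin of myelin, stood at 2.07, 2.0 and 1.97 in lung and at -4.11, -3.28 and -3.54 in adipose tissue and differed in the other direction, by 5.66 ± 0.27 (adjusted p = 0.00578). Sox10, the Schwann cell factor, did not pass, at -0.11 ± 0.27 (adjusted p = 0.748).

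Adipocyte genes were higher in adipose tissue for 23 of 24 measured and higher in lung for 0 (13, 21 and 19 without a rat), with a median relative to all genes of -6.08. Lep, the hormone leptin, had the largest difference of any gene named in this direction, and stood at -5.77, -7.42 and -4.24 in lung and at 5.22, 7.12 and 6.72 in adipose tissue. The difference was -12.16 ± 0.84 (adjusted p = 0.00729), and 1 of the 3 lungs, that of rat 3, was above background for Lep. Adipoq, adiponectin, stood at -1.06, -1.99 and 1.16 in lung and at 8.45, 9.34 and 8.67 in adipose tissue and differed by -9.45 ± 0.78 (adjusted p = 0.00923). Its lung values spread over more than 3 log2 units, with rat 3 highest. Plin1, the main coat protein of the adipocyte lipid droplet, was above background in no lung and was at least 206-fold higher in adipose tissue. Adrb3, the receptor through which catecholamines start lipolysis in rodent fat, stood at -5.68, -5.7 and -3.07 in lung and at 3.4, 3.91 and 3.85 in adipose tissue (difference -8.53 ± 0.60, adjusted p = 0.00747).

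Npr3, the clearance receptor of natriuretic peptides, was the adipocyte gene that did not pass, at -0.09 ± 0.65 (adjusted p = 0.914). The nuclear receptor Pparg, which drives adipocyte formation, differed by -3.14 ± 0.39 (adjusted p = 0.0149) and Cd36, a fatty acid transporter that lung capillaries also carry, by -2.32 ± 0.27 (adjusted p = 0.0142). The list's median level on the lung arrays was 0.56, 0.32 and 1.12 in rats 1 to 3, and 20, 20 and 23 of the 24 genes were above background there.

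The 15 largest adipose differences held further genes outside the adipocyte list. Alb, albumin, stood at -3.23, -4.1 and -1.12 in lung and at 5.6, 6.52 and 6.2 in adipose tissue, with rat 3 again the highest lung, and differed by -8.92 ± 0.68 (adjusted p = 0.00839). Sncg, gamma-synuclein, differed by -8.68 ± 0.38 (adjusted p = 0.00578), Mrap, the accessory protein of the ACTH receptor, by -8.41 ± 0.42 (adjusted p = 0.00578), and Serpina3n, a protease inhibitor, by -8.06 ± 0.51 (adjusted p = 0.0067). Rbp7, a retinol-binding protein, differed by -8.02 ± 0.41 (adjusted p = 0.00578) and Arxes1 by -8.12 ± 0.51 (adjusted p = 0.00672). Rbfox3, the neuronal nuclear antigen NeuN, was at least 81.9-fold higher in adipose tissue, with adipose levels of -0.55, 0.44 and 1.43. Bin2a, at 4.67, 0.80 and 1.31 in adipose tissue, was highest in rat 1, and Defb39, a beta-defensin, at 4.32, -2.76 and 4.0, was lowest in rat 2. Defb39 differed by -8.65 ± 1.30 (adjusted p = 0.02) and lost its call in 4 of 10 alternative settings. In HDM rats Defb39 did not pass, at -4.80 (adjusted p = 0.0675).

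**Figure D3:**
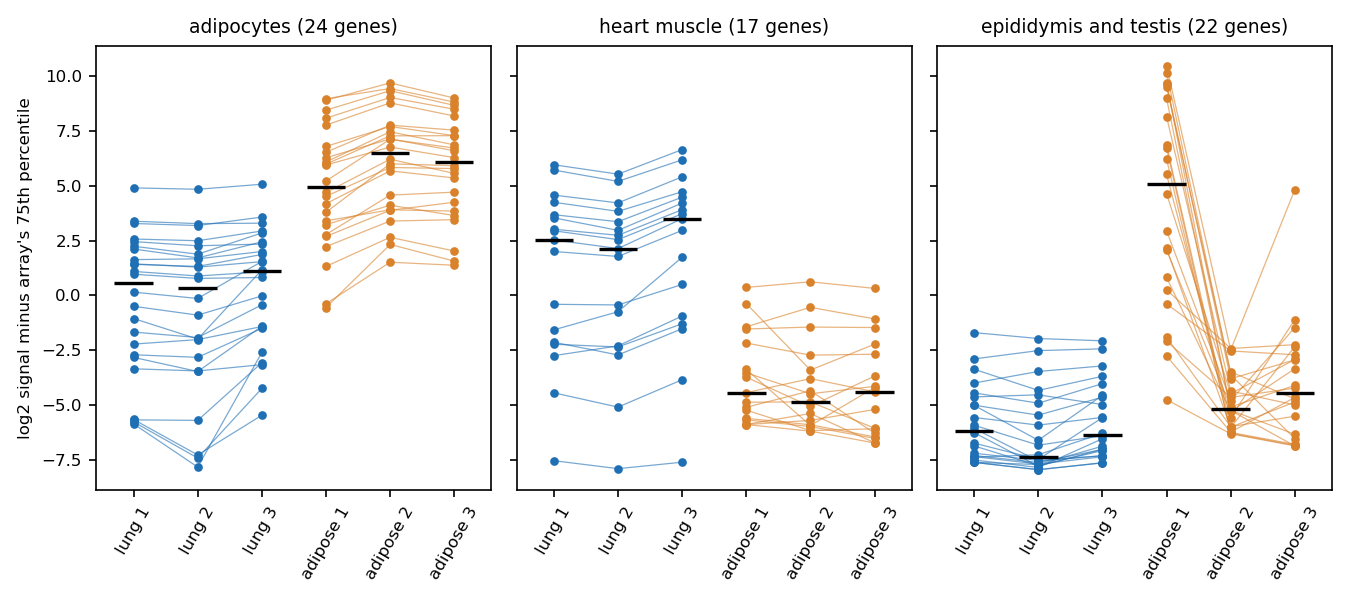
Signal of the adipocyte, heart muscle and epididymis or testis genes on each control array (y axis, log2 signal minus the 75th percentile of the array, 1 line per gene within a tissue, black bars for the median of the list). Adipocyte and heart muscle medians are highest in rat 3 among lungs, at 1.12 and 3.50, and the epididymis and testis median is 5.08 in the adipose tissue of rat 1 against -5.16 and -4.44 in rats 2 and 3.

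Triglyceride metabolism followed the adipocyte genes. Of the list for triglyceride storage and release, 15 of 18 measured were higher in adipose tissue and 0 in lung (5, 11 and 7 without a rat). Pck1, which makes glycerol 3-phosphate precursors in fat, stood at -3.2, -4.63 and -0.71 in lung and at 2.85, 4.15 and 4.52 in adipose tissue and differed by -6.68 ± 0.76 (adjusted p = 0.0138). Dgat1 and Dgat2, which add the last fatty acid, differed by -4.08 ± 0.23 (adjusted p = 0.00602) and -4.04 ± 0.37 (adjusted p = 0.0105). The lipases differed less, with Lipe, hormone-sensitive lipase, at -3.18 ± 0.45 (adjusted p = 0.0182), Mgll at -2.1 ± 0.36 (adjusted p = 0.0243) and Pnpla2, adipose triglyceride lipase, at -1.89 ± 0.52 (adjusted p = 0.0484). Pnpla2 lost its call in 9 of 10 alternative settings, over which its difference ranged from -2.58 to -0.19. Abhd5, the co-activator of Pnpla2, did not pass, at -0.92 ± 0.35 (adjusted p = 0.101).

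Fatty acid synthesis gave 0 higher in lung and 12 higher in adipose tissue of 18 measured (4, 7 and 6 without a rat). Thrsp, a lipogenic nuclear protein, stood at -2.11, -2.82 and -0.61 in lung and at 4.87, 6.41 and 5.85 in adipose tissue and differed by -7.56 ± 0.61 (adjusted p = 0.00908). Acaca, the first committed enzyme, differed by -3.95 ± 0.29 (adjusted p = 0.00782), Fasn, fatty acid synthase, by -2.38 ± 0.27 (adjusted p = 0.0138), and Acly, which supplies acetyl-CoA, by -1.51 ± 0.29 (adjusted p = 0.0261), which turned to 0.19 under spike-in scaling. The desaturases of polyunsaturated fatty acids did not pass, with Fads1 at 0.51 ± 0.25 (adjusted p = 0.17) and Fads2 at 0.29 ± 0.40 (adjusted p = 0.575), while Scd, which makes monounsaturated fatty acids, differed by -3.88 ± 0.54 (adjusted p = 0.0174). Insulin signalling and glucose uptake gave 0 higher in lung and 10 higher in adipose tissue of 13 measured (4, 6 and 3 without a rat). Slc2a4, the insulin-regulated transporter GLUT4, stood at -0.50, -0.90 and -0.02 in lung and at 3.23, 4.11 and 3.64 in adipose tissue and differed by -4.13 ± 0.36 (adjusted p = 0.00971), and Trarg1, which travels with it, by -6.43 ± 0.35 (adjusted p = 0.00602). Irs1 differed by -3.61 ± 0.34 (adjusted p = 0.0108), while Irs2, at 0.24 ± 0.32 (adjusted p = 0.555), did not pass.

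Mitochondrial pathways differed by less, and their direction depends on the scaling. Fatty acid oxidation gave 1 higher in lung and 12 higher in adipose tissue of 20 measured (0, 0 and 2 without a rat) and a median relative to all genes of -0.71, but under spike-in scaling 5 genes were higher in lung and 0 in adipose tissue. Branched-chain amino acid breakdown gave 0 higher in lung and 10 higher in adipose tissue of 15 measured (0, 0 and 2 without a rat) and -0.68, against 2 and 0 under spike-in scaling. The citric acid cycle gave 0 higher in lung and 7 higher in adipose tissue of 19 measured (0, 0 and 1 without a rat) and -0.46, against 9 and 0. Relative to all genes, the medians of these 3 lists stayed below 0 under every setting tried. Settings that only rescale whole arrays, spike-in scaling among them, could not have changed these medians. Without rat 1 none of the genes in these lists was called.

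Acads, which oxidises short-chain acyl-CoA, stood at 2.72, 2.69 and 2.91 in lung and at 4.68, 4.93 and 4.71 in adipose tissue and differed by -2.0 ± 0.21 (adjusted p = 0.0125). Aldh6a1, of valine breakdown, differed by -2.02 ± 0.19 (adjusted p = 0.0108) and Dld, a subunit shared by the pyruvate, 2-oxoglutarate and branched-chain dehydrogenases, by -1.78 ± 0.22 (adjusted p = 0.0148). Cs, citrate synthase, differed by -1.51 ± 0.23 (adjusted p = 0.02) and turned to 0.20 under spike-in scaling. Ppargc1a, a co-activator of mitochondrial genes, was the 1 oxidation gene higher in lung, at 1.02 ± 0.26 (adjusted p = 0.041).

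The thermogenic list gave 2 higher in lung and 3 higher in adipose tissue of 11 measured (2, 4 and 2 without a rat). Ucp1, the uncoupling protein of brown fat, stood at -4.66, -5.73 and 1.13 in lung and at -4.66, -3.7 and -3.85 in adipose tissue and did not pass (adjusted p = 0.6). It was above background on 2 lung and 2 adipose arrays, and its difference ranged from -2.03 in rat 2 to 4.98 in rat 3. Cox8b, the heart and muscle isoform of a cytochrome c oxidase subunit that also marks brown fat, was higher in lung, at 3.35, 3.3 and 3.88 in lung and at -0.93, -3.78 and -3.66 in adipose tissue, a difference of 6.3 ± 0.72 (adjusted p = 0.0139). Ebf2, a factor of adipocyte precursors, was higher in adipose tissue, at -6.51 ± 0.44 (adjusted p = 0.00721).

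Of the adipose transcription factors, 9 of 17 measured were higher in adipose tissue and 2 in lung (5, 7 and 9 without a rat, 7 and 6 by spike-ins). Wt1, a factor of mesothelium and of visceral fat precursors, stood at -5.79, -4.68 and -7.64 in lung and at 0.83, 2.09 and 1.99 in adipose tissue and differed by -7.67 ± 0.70 (adjusted p = 0.0102). Cebpa differed by -3.02 ± 0.27 (adjusted p = 0.00997) and Mlxipl, the carbohydrate response factor ChREBP, by -3.44 ± 0.25 (adjusted p = 0.00767). The 2 in the other direction were Tcf21, a factor of fibroblast precursors in many organs, at 2.43 ± 0.21 (adjusted p = 0.00968), and Cebpd, an early factor of adipocyte formation, at 1.95 ± 0.22 (adjusted p = 0.0135). Mesothelial genes gave 1 higher in lung and 6 higher in adipose tissue of 8 measured (2, 6 and 5 without a rat). Bnc1 differed by -6.24 ± 0.45 (adjusted p = 0.00779), Upk1b by -5.3 ± 0.53 (adjusted p = 0.0118), and Msln, mesothelin, stood at 1.95, 2.29 and 1.58 in lung and at 5.53, 6.56 and 6.84 in adipose tissue and differed by -4.37 ± 0.39 (adjusted p = 0.01). The 1 gene in the other direction, Calb2, at 0.92 ± 0.26 (adjusted p = 0.05), differed by -1.02 on its second probe.

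Hox genes, which record position along the body axis, were higher in adipose tissue or did not pass. Of 28 measured, 7 were higher in adipose tissue and 0 in lung (3, 6 and 4 without a rat), and all 7 had paralog numbers from 4 to 9. Hoxd9 stood at -4.29, -4.56 and -3.9 in lung and at 3.92, 2.22 and 1.69 in adipose tissue and differed by -6.86 ± 0.55 (adjusted p = 0.00899). Hoxc9 and Hoxc4 were not above background on the lung arrays and were at least 46.7-fold and at least 18.2-fold higher in adipose tissue. Hoxc8, at -5.23 ± 0.39 (adjusted p = 0.00792), and Hoxb7, at -4.11 ± 0.66 (adjusted p = 0.0222), followed, with Hoxb7 highest in rat 1, at 4.41, 1.46 and 2.65 across the adipose arrays. Hoxa6 differed by -3.45 ± 0.62 (adjusted p = 0.0261) and Hoxa7 by -1.81 ± 0.32 (adjusted p = 0.0252). Hoxa4 was expressed in both tissues without passing, at 1.69, 1.85 and 1.53 in lung and at 1.79, 1.66 and 1.39 in adipose tissue, and Hoxb5, at 0.99 ± 0.54 (adjusted p = 0.201), had the highest difference of the list. The list's median relative to all genes ranged from -1.82 to -0.17 over the settings tried, of which rescaling of whole arrays cannot move it.

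**Figure D4:**
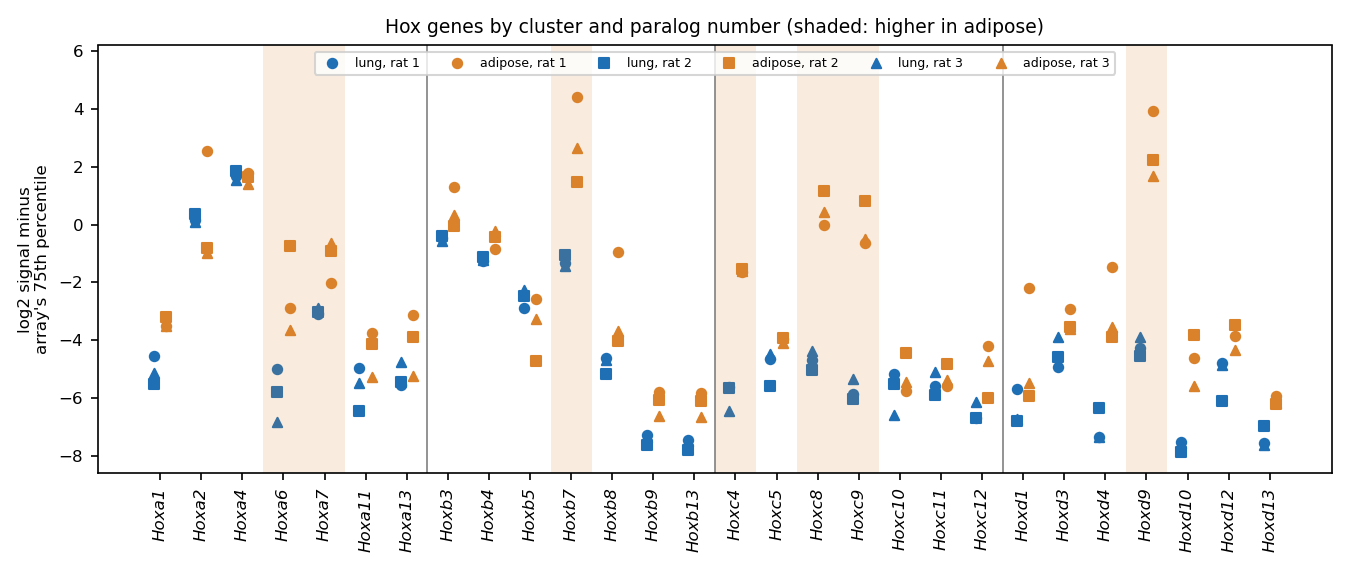
Signal of the measured Hox genes on the 6 control arrays, ordered by cluster and paralog number (y axis, log2 signal minus the 75th percentile of the array, blue for lung, orange for adipose tissue, the symbol shape for the rat, shading for the 7 genes higher in adipose tissue). The shaded genes have paralog numbers 4 to 9, and Hoxa4 is at similar levels in both tissues. Hoxb4 did not pass, at a difference of -0.69 (limma, adjusted p = 0.0684).

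Within several families some members were higher in lung and others in adipose tissue. Members in both directions are not particular to these families, since 12.8% of all genes were higher in lung and 12.1% in adipose tissue. Fatty acid-binding proteins gave 1 higher in lung and 2 higher in adipose tissue of 9 measured (0, 3 and 2 without a rat). The count higher in lung lies near the share over all genes. Fabp4 of adipocytes stood at 0.15, -0.14 and 1.55 in lung and at 8.08, 9.03 and 8.49 in adipose tissue and differed by -8.01 ± 0.48 (adjusted p = 0.00659), and Fabp3 of heart and muscle stood at 1.22, 1.03 and 2.2 in lung and at -2.61, -1.66 and -1.32 in adipose tissue and differed by 3.35 ± 0.30 (adjusted p = 0.0101). Fabp5 did not pass, at -0.21 ± 0.32 (adjusted p = 0.624), and Fabp1 of the liver differed by -3.54 ± 0.48 (adjusted p = 0.0168). Aquaporins gave 4 higher in lung and 2 higher in adipose tissue of 11 measured (2, 5 and 4 without a rat). Aqp5, Aqp4, a water channel of airway cells and glia, at 4.56 ± 0.64 (adjusted p = 0.0175), Aqp3 and Aqp2 were higher in lung. Aqp7, which lets glycerol out of adipocytes, stood at -5.86, -7.83 and -2.6 in lung and at 2.69, 3.88 and 4.25 in adipose tissue and differed by -9.04 ± 1.0 (adjusted p = 0.0134), and Aqp11 differed by -2.7 ± 0.25 (adjusted p = 0.0107). Aqp1, the water channel of capillaries, stood at 7.23, 7.15 and 7.38 in lung and at 7.05, 7.88 and 7.45 in adipose tissue and did not pass (adjusted p = 0.552).

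Carbonic anhydrases gave 4 higher in lung and 7 higher in adipose tissue of 14 measured (3, 5 and 5 without a rat, 5 and 1 by spike-ins). Car3, a cytosolic form abundant in rodent fat, stood at 1.84, 0.67 and 3.4 in lung and at 9.54, 9.29 and 8.65 in adipose tissue and differed by -7.19 ± 0.71 (adjusted p = 0.0116), and Car8 differed by 3.78 ± 0.27 (adjusted p = 0.00757). Perilipins, which coat lipid droplets, gave 0 higher in lung and 2 higher in adipose tissue of 4 measured (1, 2 and 2 without a rat), namely Plin1 and Plin4, at -6.72 ± 0.40 (adjusted p = 0.00659), while the widespread Plin2 did not pass, at 0.17 ± 0.36 (adjusted p = 0.726). Cytochrome c oxidase gave 3 isoforms in each direction of 10 measured (1, 2 and 1 without a rat, all higher in lung, 6 and 0 by spike-ins). Under quantile normalization 0 were higher in adipose tissue. Cox6a2, the heart and muscle isoform, differed by 5.94 ± 0.40 (adjusted p = 0.00719) and Cox4i2, an isoform abundant in lung, by 1.41 ± 0.25 (adjusted p = 0.0261). Cox4i1, at -1.1 ± 0.24 (adjusted p = 0.0283), and Cox8a, at -1.12 ± 0.21 (adjusted p = 0.0261), the widespread isoforms, and Cox6b2, at -1.27 ± 0.30 (adjusted p = 0.0346), were higher in adipose tissue and turned to 0.60, 0.58 and 0.43 under spike-in scaling.

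Claudins, which seal tight junctions, gave 3 higher in lung and 2 higher in adipose tissue of 19 measured (3, 4 and 4 without a rat). Both counts lie near the shares over all genes, 12.8% and 12.1%. Cldn18 of the alveolar epithelium was at least 184-fold higher in lung, and Cldn5 of the endothelium differed by 3.94 ± 0.35 (adjusted p = 0.0101). Cldn15 and Cldn22 were higher in adipose tissue, at -2.22 ± 0.26 (adjusted p = 0.0141) and -3.52 ± 0.32 (adjusted p = 0.0103). Cldn2 stood at -7.18, -5.5 and -7.28 in lung and at 3.84, -4.71 and 0.21 in adipose tissue, highest in rat 1, and did not pass (adjusted p = 0.0692). Glucose transporters gave 1 higher in lung and 3 higher in adipose tissue of 11 measured (1, 3 and 3 without a rat, 6 and 1 by spike-ins). The count higher in lung lies near the share of 12.8% over all genes. Slc2a6 was higher in lung, at 2.83 ± 0.24 (adjusted p = 0.00964), and Slc2a4, Slc2a5 and Slc2a13 (0.63 under spike-in scaling) in adipose tissue, with the fructose transporter Slc2a5 at -2.79 ± 0.20 (adjusted p = 0.0077). Slc2a1, the widespread transporter GLUT1, did not pass, at 0.13 ± 0.27 (adjusted p = 0.71).

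**Figure D5:**
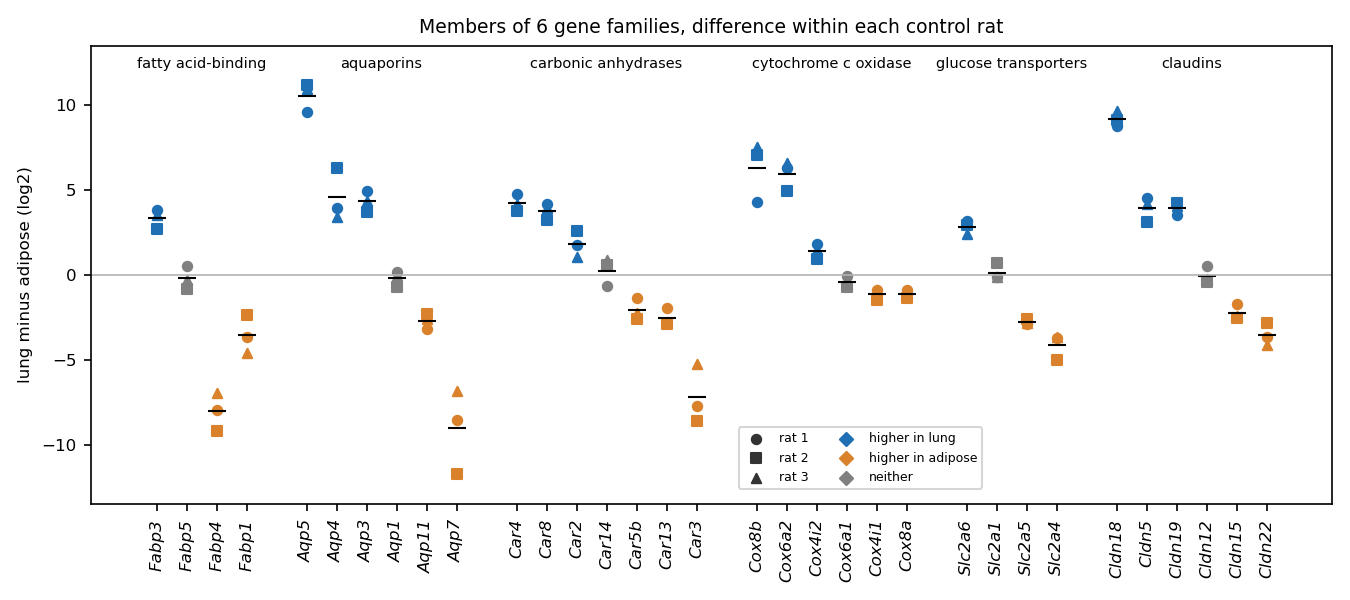
Difference of members of 6 gene families within each control rat (y axis, lung minus adipose tissue, log2, symbol shape for the rat, black bars for the fitted difference, blue for genes higher in lung, orange for adipose tissue, grey for neither). In each family at least 1 member lies above 0 and at least 1 below, although the cytochrome c oxidase members in orange lie above 0 under spike-in scaling. The members shown were picked with their calls known, and the grey members were added for comparison after their values were seen, so the figure is no test of the families.

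Secreted signals likewise held members in both directions. Of the Wnt ligands and antagonists, 3 were higher in lung and 7 in adipose tissue of 23 measured (4, 7 and 6 without a rat, 8 and 4 by spike-ins). The count higher in lung lies near the share over all genes, 12.8%. Wnt7a stood at 0.95, 1.18 and 0.78 in lung and at -2.49, -2.69 and -3.66 in adipose tissue and differed by 3.92 ± 0.27 (adjusted p = 0.00755), and Wnt4 differed by 2.72 ± 0.20 (adjusted p = 0.0077). Wnt10b, which restrains adipocyte formation, was at least 5.12-fold higher in adipose tissue in the main scaling. Over alternative settings its difference ran from -3.75 to -0.36, and it lost its call in 3 of 10. Wnt2b differed by -3.7 ± 0.32 (adjusted p = 0.0098). The secreted antagonists went both ways, with Sfrp4 at least 15-fold higher in adipose tissue, Sfrp1 at -2.34 ± 0.20 (adjusted p = 0.00949) and Sfrp2 at 1.42 ± 0.24 (adjusted p = 0.0243).

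BMP ligands and antagonists gave 5 higher in lung and 7 higher in adipose tissue of 19 measured (2, 7 and 6 without a rat, 9 and 3 by spike-ins). Bmp3, at 4.01 ± 0.57 (adjusted p = 0.018), Bmp4, at 1.75 ± 0.29 (adjusted p = 0.023), and the antagonist Sostdc1, at 4.0 ± 0.36 (adjusted p = 0.0101), were higher in lung. Gdf10 stood at -1.66, -1.83 and -1.37 in lung and at 2.88, 3.9 and 3.48 in adipose tissue and differed by -5.04 ± 0.31 (adjusted p = 0.0067), and the antagonist Chrd, chordin, by -3.42 ± 0.33 (adjusted p = 0.0109). FGF ligands and receptors gave 3 higher in lung and 6 higher in adipose tissue of 14 measured (4, 6 and 5 without a rat, 5 and 3 by spike-ins). The ligands Fgf2, at -3.61 ± 0.30 (adjusted p = 0.00934), Fgf9, at -3.31 ± 0.45 (adjusted p = 0.0169), and Fgf10, at -2.56 ± 0.28 (adjusted p = 0.013), were higher in adipose tissue, and the receptors Fgfr3, at 4.36 ± 0.26 (adjusted p = 0.00659), Fgfr4, at 3.59 ± 0.69 (adjusted p = 0.0261), and Fgfr2, at 1.8 ± 0.21 (adjusted p = 0.014), were higher in lung. Fgfr1 did not pass, at -0.61 ± 0.27 (adjusted p = 0.131), and the decoy receptor Fgfrl1 was higher in adipose tissue, at -2.94 ± 0.31 (adjusted p = 0.0124).

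Elastic fibre and basement membrane genes gave 5 higher in lung and 7 higher in adipose tissue of 20 measured (8, 7 and 5 without a rat, 10 and 3 by spike-ins). Mfap4, a microfibril protein, stood at 4.95, 5.01 and 5.16 in lung and at 0.25, 0.85 and 0.99 in adipose tissue and differed by 4.34 ± 0.23 (adjusted p = 0.00578). Fbn1, fibrillin-1, stood at -0.25, -0.28 and -0.36 in lung and at 2.79, 3.83 and 3.5 in adipose tissue and differed by -3.67 ± 0.29 (adjusted p = 0.00879), and the laminin chain Lama4 by -2.14 ± 0.36 (adjusted p = 0.024). Eln, elastin, did not pass, at 0.17 ± 0.36 (adjusted p = 0.722).

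Of 12 reference genes, 1 was higher in lung and 3 in adipose tissue (0, 0 and 0 without a rat, 8 and 0 by spike-ins). Gapdh stood at 4.9, 4.8 and 5.06 in lung and at 5.28, 5.12 and 5.19 in adipose tissue and Hprt1 at 4.1, 4.12 and 4.06 in lung and at 4.85, 4.77 and 4.58 in adipose tissue, with differences of -0.28 ± 0.20 (adjusted p = 0.305) and -0.64 ± 0.20 (adjusted p = 0.0626) that did not pass and that turned to 1.43 and 1.06 under spike-in scaling. The reference gene higher in lung was Actb, at 0.91 ± 0.22 (adjusted p = 0.0361), and those higher in adipose tissue were Gusb, at -0.93 ± 0.21 (adjusted p = 0.0308), Pgk1, at -0.92 ± 0.19 (adjusted p = 0.0273), and Ppia, at -0.85 ± 0.22 (adjusted p = 0.0439), which turned to 0.77, 0.79 and 0.86 under spike-in scaling. The genes the study followed by PCR did not pass the test between the tissues of control rats. Ptafr stood at 1.35, 1.09 and 0.91 in lung and at 0.98, 2.15 and 2.04 in adipose tissue (adjusted p = 0.255), Vav3 at 0.53, 0.50 and 0.44 in lung and at 0.90, -1.18 and 0.09 in adipose tissue (adjusted p = 0.362) and Zbtb16 at 4.15, 4.05 and 3.83 in lung and at 2.87, 4.24 and 3.95 in adipose tissue (adjusted p = 0.513). For all 3 genes the difference in rat 1 had the opposite sign to the differences in rats 2 and 3. In the 5 HDM rats, by the same limma fit, Vav3 was higher in lung, at 1.91 (adjusted p = 0.000954). Zbtb16 was there higher in adipose tissue, at -1.83 (adjusted p = 0.00116), and Ptafr did not pass, at -0.70 (adjusted p = 0.0748). The change between control and HDM rats passed for none of them, with adjusted p of 0.32 for Zbtb16, 0.569 for Vav3 and 0.962 for Ptafr (limma).

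Genes of epididymis and testis gave 0 higher in lung and 1 higher in adipose tissue of 22 measured (1, 1 and 0 without a rat). The 1 gene called without rat 1 was higher in lung, and 0 were then higher in adipose tissue. The median difference of the list was nevertheless -4.97, with medians of -10.37, -1.65 and -0.98 within rats 1 to 3. Lcn5, a lipocalin of the epididymis, stood at -4.63, -4.54 and -4.98 in lung and at 10.48, -2.49 and 4.82 in adipose tissue and did not pass (adjusted p = 0.0551). Defb39 and Bin2a, named above, were above background on all 3 adipose arrays.

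Whether the same genes separate the tissues was examined in the 5 HDM rats, which share no array with the control rats. Their arrays lay on the same slides, so slide and tissue cannot be told apart there either. In these rats 2864 genes (17.2%) were higher in lung and 2607 (15.6%) in adipose tissue by the same rule. Of the 2127 genes higher in lung in control rats, 1890 were higher in lung in HDM rats and 0 in adipose tissue. Of the 2025 higher in adipose tissue, 1632 were so in HDM rats and 0 were higher in lung. The median differences of lists, here not relative to all genes, were 8.15 in HDM and 7.83 in control rats for alveolar epithelium, 5.93 and 5.8 for heart muscle, -6.18 and -6.38 for adipocytes and -2.82 and -4.97 for epididymis and testis. In a limma fit of the difference between HDM and control rats in the lung minus adipose difference, 1 probe, a second probe of Prok2, and 0 of 16678 genes, each by its brightest probe, passed an adjusted p below 0.05, and 1183 genes had an unadjusted p below 0.05.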

How the data were processed

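Total RNA (50 ng) from each tissue was labelled with Cy3 and hybridised to 1-colour Agilent rat arrays by the authors, with 1 array per rat and tissue. The authors deposited spot intensities from Agilent Feature Extraction 12.0.3.1, which per the file headers had subtracted the background and made no normalization between arrays, beside median spot and background intensities and marks for outlier and dim spots. A deposited table of normalized values was not used, since it sets the median of every probe to 0 in either tissue. From the intensities, after removal of control and outlier spots, a mean log2 value per probe was taken and expressed relative to the 75th percentile of its array. Lung and adipose tissue were compared with limma 3.58.1 in R 4.3.3, with the rat as a block, since labels give both tissues the same rat numbers. Deviations of the same rat in the 2 tissues correlated at 0.07, 0.05 and -0.05. Benjamini–Hochberg adjustment ran over 45598 probes. The p-values and standard errors rest on the spread between 3 rats, which limma moderates towards that of all probes. Precision is limited by how many arrays there are. The fit was tested on simulated data with known differences.

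Symbols came from RefSeq accessions (GRCr8), with the brightest of several probes for each of 16678 genes. Bounds of "at least" compare the mean of the brighter tissue with the lowest signal above background in the other. They hold for the main scaling only. Over alternative settings, differences fell below some of these bounds, to -0.36 for Wnt10b, -1.14 for Hoxc4, -4.12 for Plin1 and 0.85 for Marco. The genes named are the 15 with the largest difference in each direction, up to 4 per list, called members of families, reference genes and genes the study followed. The 15 were taken only from called genes without overlap between the tissues and above background on all 3 arrays of the higher tissue. A further 65 list members were named after their values were seen. The demand that the higher tissue be above background was added after seeing the data. The members of the comparison and the 43 gene lists (657 of 720 entries measured) were chosen with earlier results of these data known. Promoters of genes with several entries are the first listed. Other software was data.table (version 1.17.8), jsonlite 2.0.0, Python 3.11.15 and, for plots, matplotlib 3.10.9. Some genes that the rule names are not reported here, although the lists count them.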

Additional observations from a re-analysis of the deposited data

Results flagged for a closer look

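The tissue difference of 1 probe of Prok2, a secreted prokineticin, differed between control and HDM rats. Lung minus adipose tissue was -1.31, -0.34 and -0.83 in the 3 control rats (mean -0.82) and 4.24 to 5.30 in the 5 HDM rats (mean 4.70). The control difference minus the HDM difference was -5.52 (limma over within-rat differences of all 8 rats, adjusted p = 0.00959). The probe was above background on 5 of the 16 arrays. Among the 223 genes named in the text, the lowest adjusted p of the same test was 0.32, that of Zbtb16. Of these genes, 15 had an unadjusted p below 0.05, and 0 had differences of opposite sign in all rats of the 2 groups.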

How the results depend on the processing

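The number of probes called was 18705 with the rat as a block and 20810 with no replicate block, and in HDM rats 19331 and 20185, so the pairing moved neither by over 1.5 times. Quantile normalization gave 7235 probes, 52.34% of them higher in lung against 23.96% in the main scaling, and normexp with quantile normalization gave 6869, 55.51% of them higher in lung. Scaling to Gapdh and Hprt1 put 54.04% and to the spike-ins 95.95% higher in lung. Leaving out dim probes gave 11127 (44.66%), limma treat 4956 (38.42%), a fold change above 4 4476 (40.55%), counting by gene 6436, and asking that the higher tissue be above background, chosen after seeing the data, 9512 (46.31%). Without 1 rat, from 1510 (without rat 1) and 3155 (without rat 2) to 9062 (without rat 3) probes were called, 16.86% to 48.48% of them higher in lung. The methods' t-test called 20359 probes before adjustment and 15278 after Benjamini–Hochberg adjustment. The first component held 65.71% under quantile normalization, 78.68% over probes above background on all 6 arrays and 76.25% to 81.86% without 1 rat, the last chosen after seeing the data. Genes above background in a single tissue numbered 664, and 860 to 1054 without 1 rat. The cause was not tested for any of these shifts, beyond the fewer rats or probes that a setting has by construction.

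Of 223 named genes, 43 turned sign under at least 1 alternative, 22 of them where either value was called. Under spike-in scaling these were Gapdh (1.43), Hprt1 (1.06), Acly (0.19), Aqp1 (1.498), C3 (1.61), Cald1 (0.24), Cox4i1 (0.60), Cox6b2 (0.43), Cox8a (0.58), Cs (0.20), Fabp5 (1.4975), Gpihbp1 (1.38), Gusb (0.77), Lnpep (0.19), Pax5 (0.73), Pgk1 (0.79), Ppia (0.86), Slc2a13 (0.63), Sox10 (1.59), Sox9 (0.62) and Tbx21 (0.49), and a second probe of Calb2 gave -1.02. The median relative to all genes turned under quantile and normexp normalization for claudins (-0.1001 and -0.0488), cytochrome c oxidase isoforms (0.0732 and 0.0259), glucose transporters (-0.0799 and -0.0991) and reference genes (0 and 0.0545). With dim probes left out it turned for claudins (-0.0538), glucose transporters (-0.0833), the renin-angiotensin list (0.32) and aquaporins (-0.21). Without 1 rat it ran from -0.0845 (without rat 1) to 0.2683 for glucose transporters, from -0.4061 to 0.1566 for elastic fibre genes (positive without rat 2, at 0.1467, and without rat 3), and turned for claudins without rat 2 (-0.0876). Named genes kept direction and call in 1847 comparisons, lost the call in 305, 95, 47 and 65 of them without rats 1, 2 and 3, and gained it in 51, and in 51 comparisons a difference that was called in neither setting changed sign.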
